A study of Mus musculus with 6 samples.

Results

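The genes described here are 40 genes of T cells, natural killer (NK) cells and innate lymphoid cells, found by their symbols among the 55039 genes of the deposited tables. They were read in epididymal white adipose tissue (eWAT), the fat depot beside the epididymis, of 6 male C57BL/6 mice that were 6 to 7 weeks old at the start. In the cachexia group (CAC), 3 mice received LLC cells under the skin, a mouse Lewis lung carcinoma line. In the control group (CONT), 3 mice received phosphate-buffered saline (PBS) alone. Tissue was taken 28 days after injection, and 1 poly(A) library was made from each mouse. The RNA is that of the whole depot, so adipocytes, stroma, vessels and all immune cells are read together, and no engineered allele is named for either group. The comparison of CAC with CONT asks how the lymphoid transcripts of the depot stood in tumor-bearing mice.

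T cells recognize peptide on other cells through the T cell receptor, whose variable chains are held at the surface with the CD3 chains and the zeta chain. Receptor engagement is read by the kinases Lck and Zap70 and the adaptor Lat, and the CD4 and CD8 coreceptors divide the cells into helper and cytotoxic classes. NK cells and group 2 innate lymphoid cells (ILC2) have no such receptor. In adipose tissue, regulatory T cells and ILC2 are known residents that carry the interleukin-33 receptor, and both are known for restraining inflammation in lean fat.

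The CD3 genes lie together on chromosome 9, and their upstream sequences are shown because the fitted differences of these 3 neighbors did not share a sign. Cd3g and Cd3d are divergent, with 1354 bases between them, and Cd3e begins on the far side of Cd3d, with 11400 bases between the ends of the pair. The sequences of Cd247, the zeta chain on chromosome 1 with the lowest p of the receptor complex, and of Rora, the member with the highest counts, follow for comparison. Each run holds the 250 bases before the RefSeq start site on the gene's own strand, from RefSeq on GRCm38.p6. The positions are chr9:44980432-44980681 (minus strand) for Cd3g, chr9:44981536-44981785 (plus) for Cd3d, chr9:45009612-45009861 (minus) for Cd3e, chr1:165788431-165788680 (plus) for Cd247 and chr9:68653536-68653785 (plus) for Rora. Capitals mark matches, on either strand, to 6 short motifs, which are the ETS motif AGGAAG, the RUNX motif TGTGGT, the E-box CAGGTG, the GATA factor motif AGATAA, the TCF and LEF motif CTTTGA and the nuclear receptor half-site AGGTCA. No matches overlapped in these sequences.
Cd3g: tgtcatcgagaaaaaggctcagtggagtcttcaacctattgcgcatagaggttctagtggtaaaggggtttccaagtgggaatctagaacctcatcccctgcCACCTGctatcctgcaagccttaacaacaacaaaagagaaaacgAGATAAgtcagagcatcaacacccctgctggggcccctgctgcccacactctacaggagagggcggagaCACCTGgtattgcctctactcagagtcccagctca
Cd3d: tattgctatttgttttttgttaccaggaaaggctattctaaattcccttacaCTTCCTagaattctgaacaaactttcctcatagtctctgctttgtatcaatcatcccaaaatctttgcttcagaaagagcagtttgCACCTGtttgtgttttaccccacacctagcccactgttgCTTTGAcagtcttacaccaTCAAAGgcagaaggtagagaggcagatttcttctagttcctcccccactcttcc
Cd3e: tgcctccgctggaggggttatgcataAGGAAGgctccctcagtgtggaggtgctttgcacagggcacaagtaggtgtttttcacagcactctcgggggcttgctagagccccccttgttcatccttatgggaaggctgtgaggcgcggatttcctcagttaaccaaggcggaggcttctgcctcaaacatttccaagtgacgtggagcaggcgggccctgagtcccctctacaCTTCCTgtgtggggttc
Cd247: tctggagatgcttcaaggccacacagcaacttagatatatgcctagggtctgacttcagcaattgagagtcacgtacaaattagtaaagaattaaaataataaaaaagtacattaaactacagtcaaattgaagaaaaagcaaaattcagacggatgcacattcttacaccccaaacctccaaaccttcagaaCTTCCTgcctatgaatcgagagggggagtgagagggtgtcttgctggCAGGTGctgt
Rora: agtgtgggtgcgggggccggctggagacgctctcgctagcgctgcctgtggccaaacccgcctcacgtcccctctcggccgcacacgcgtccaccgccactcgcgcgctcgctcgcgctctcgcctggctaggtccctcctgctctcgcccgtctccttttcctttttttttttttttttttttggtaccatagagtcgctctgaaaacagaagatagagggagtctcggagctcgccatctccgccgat

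The Cd3d sequence holds an ETS, an E-box and a pair of TCF and LEF matches. Cd3g holds E-box matches on both sides of a GATA match, Cd3e holds 2 ETS matches, and Cd247 holds an ETS and an E-box match. The Rora sequence holds no match to any of the 6. Upstream sequences were found for 32 of the 40 members, and for 26 of these the start site lay within 100 bases of the gene start in the deposited table. The ETS letters occurred in 50% of the 32 and in 28.9% of the 20449 genes searched the same way, the E-box letters in 34.4% against 16.8%, and the RUNX letters in 25% against 13%. The TCF and LEF letters (9.38% against 13.5%), the GATA letters (6.25% against 9.27%) and the half-site (6.25% against 12.9%) occurred in a smaller share of the members than of all genes. These are matches of letters in 1 window per gene, and binding was not measured.

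The libraries held 15713794 to 20638492 counted reads in CONT and 22829269 to 25926425 in CAC, so each CAC library was the deeper. A pair of CONT libraries stood apart. In CONT replicate 1, 30.2% of reads came from mitochondrial genes, against 3.89% to 5.04% in the other 5 libraries. In CONT replicate 3, the summed level of 4 epididymis markers was 6990 CPM (counts scaled to the TMM-adjusted library size), against 201 and 2.63 in the other CONT libraries and at most 0.415 in CAC, led by Gpx5 and Adam7. Adipocyte markers summed to 10100 to 32800 CPM (Fabp4 and Cidec highest), but 1 of them, Lep, was at 409 to 697 CPM in CONT, 512 in CAC replicate 1, and 4.0 and 0.415 in CAC replicates 2 and 3. Thymocyte markers summed to at most 0.788 CPM (Cd1d2 and Rag1 highest).

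The lymphoid genes were read thinly. Of the 40 members, 25 had fewer than 100 reads in every library, and a member's total over the 6 libraries ranged from 10 reads (Ifng) to 9393 (Rora), with a median of 221. On the FPKM scale (reads scaled by gene length and library size), which allows levels to be compared between genes, 33 members had a CONT median below 1. The other 7 were Tcf7 (3.49), Rora (3.27), Nkg7 (1.91), Gzma (1.80), Cd2 (1.58), Cd247 (1.48) and Il2rb (1.27). The filter of edgeR on low counts kept 35 members. The 5 left out were Ctla4, Foxp3, Eomes, Ifng and Areg.

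No member was called between CAC and CONT by edgeR's quasi-likelihood test at a Benjamini-Hochberg adjusted p under 0.05. The same test called 0% of the 17296 genes tested, and the members' adjusted p ranged from 0.28 to 0.999. At an unadjusted p under 0.05, 1 member was higher in CAC (Rora, 2.86% of the 35) against 6.31% of all genes. In the other direction, 4 members were lower (Cd247, Icos, Lat and Klrb1c, 11.4%) against 6.95% of all genes. DESeq2 called 5.62% of the genes with an adjusted p, and 1 member, Rora, while limma on FPKM called no member. The 4 lower members became 1 without CONT replicate 3 or CAC replicate 2 and 0 without CAC replicate 1 or CAC replicate 3. Of all genes, 13.3% passed that threshold in either direction with every library kept. That share was 9.25% without CONT replicate 3 and 7.24% without CAC replicate 2. It was 11.7% without CAC replicate 1 and 8.32% without CAC replicate 3. In bulk tissue, fewer cells of a type and less RNA per cell cannot be told apart.

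Groups are said not to overlap where all 3 libraries of one group lay above all 3 of the other. Among the 35, the groups did not overlap for 3 members with CAC above (Rora, Il7r and Cd3e, 8.57%), against 11.8% of all genes. They did not overlap for 5 with CAC below (Cd247, Cd4, Icos, Lat and Nkg7, 14.3%), against 10.7% of all genes. Without CONT replicate 1 the latter count was 12 of the 38 members then tested (31.6%), against 19.6% of all genes, and without CONT replicate 3 it was 9 of 38 (23.7%), against 13.1%. Fitted differences were negative for 27 of the 35 and positive for 8, with a median of -0.44 on the log2 scale, against -0.06 over all genes tested. By edgeR this median was -0.23 without CONT replicate 2, with 15 members higher and 21 lower, and it was -0.57 without CONT replicate 1 and -0.38 without CONT replicate 3. The members are low, and low genes as a class lay below 0 as well: the median was -0.22 over the 7087 genes from the lowest tested member to 10 CPM. Of those genes 9.92% had an unadjusted p under 0.05, and of the 33 members in that range 9.09%. The median standard error of a member's log2 difference was 0.56, against 0.38 over all genes.

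**Figure D1:**
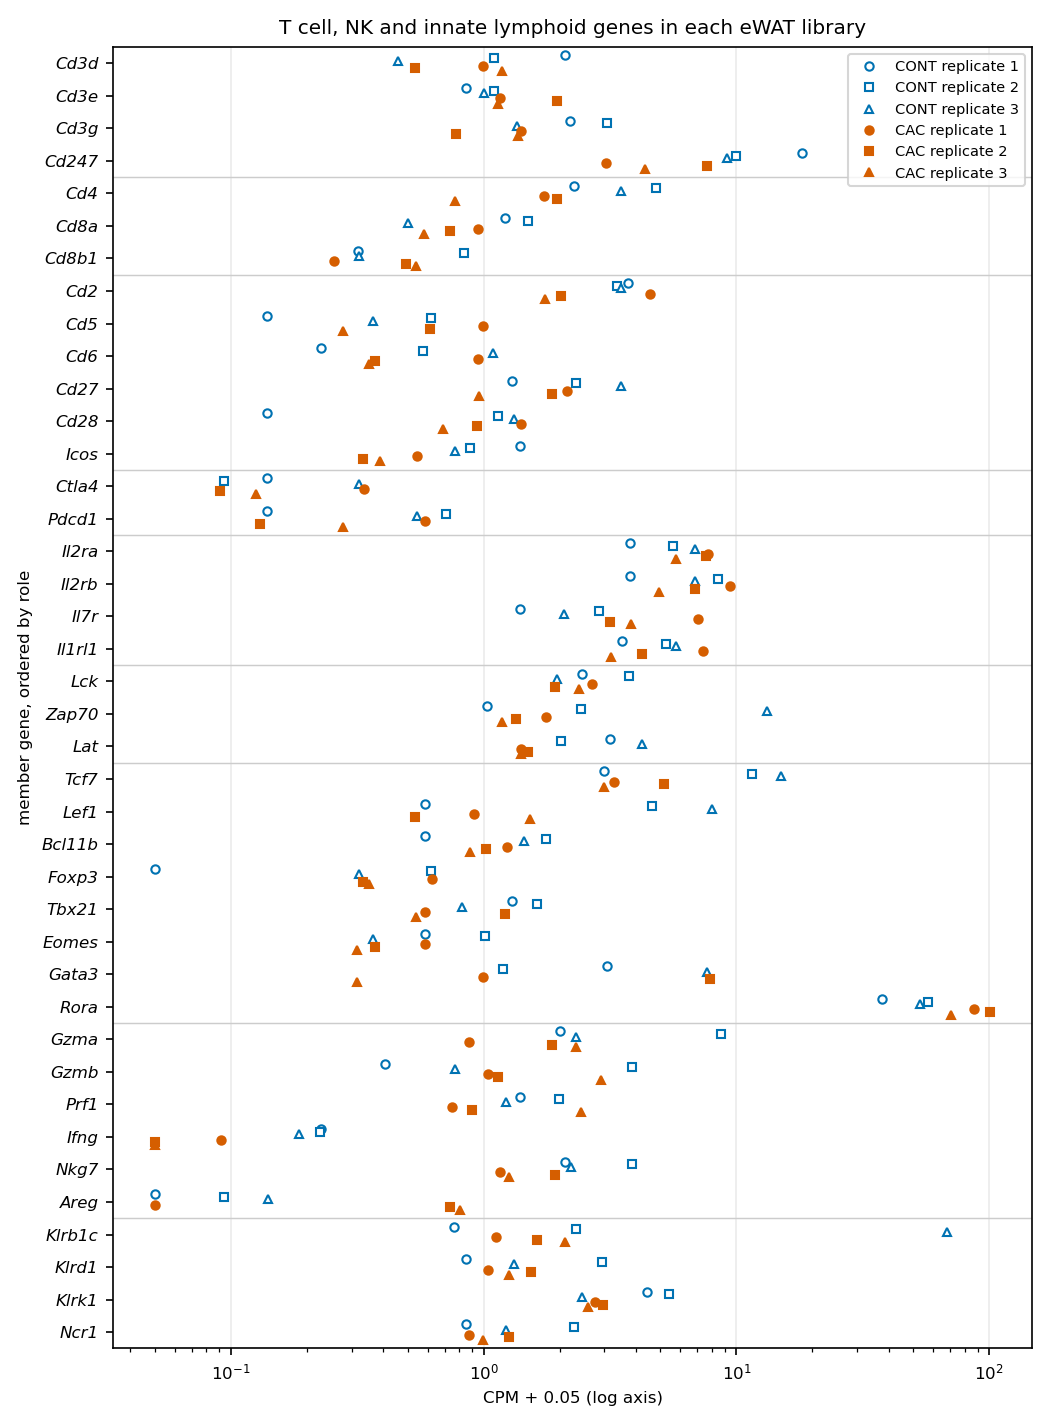
Level of each of the 40 members in each of the 6 eWAT libraries, as CPM + 0.05 on a log axis, with members ordered by role, open blue symbols for CONT and filled orange symbols for CAC. Rora lies farthest right with all CAC symbols above CONT, and Klrb1c shows 1 CONT symbol at 68.3 CPM with the other 5 at or below 2.28.

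**Figure D2:**
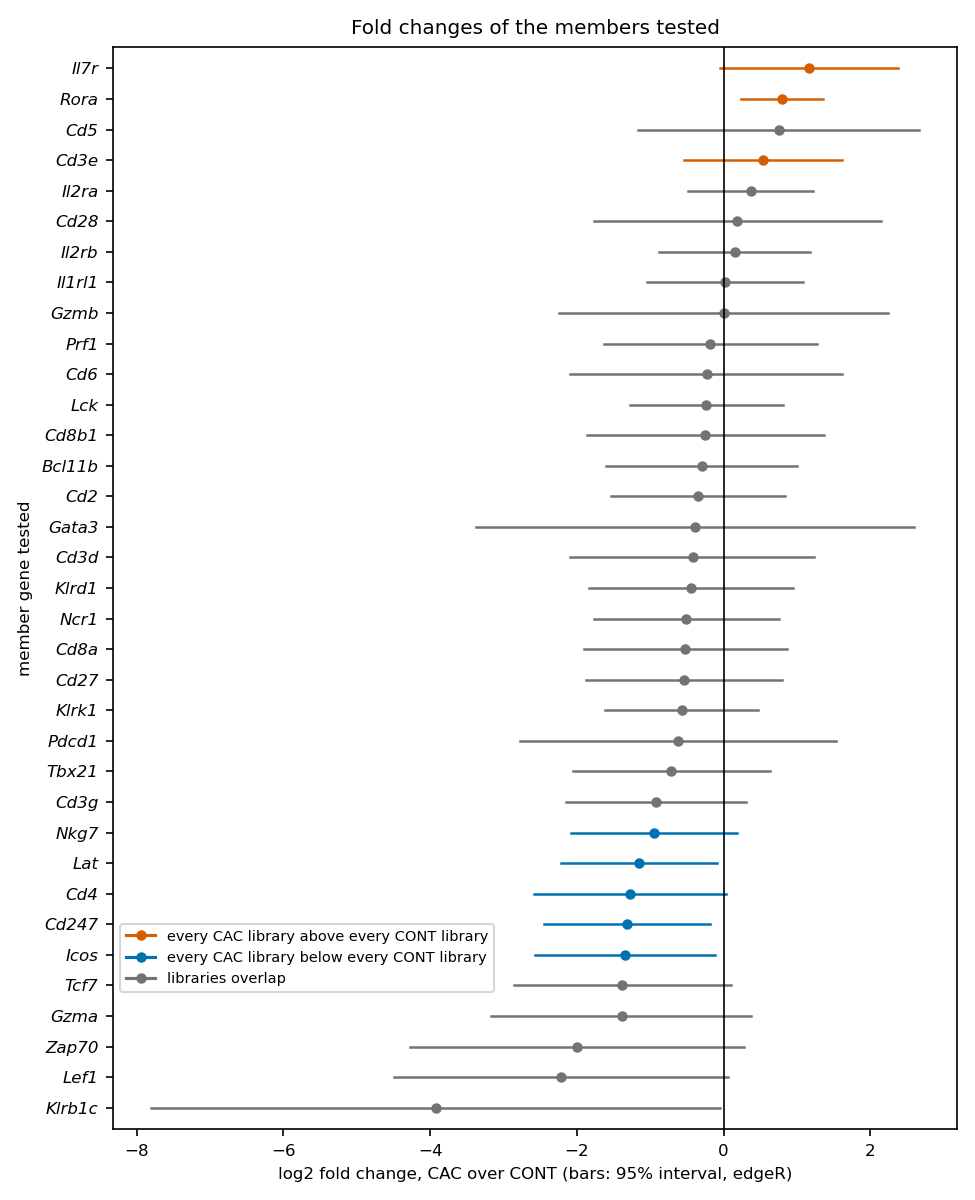
Log2 difference of CAC from CONT for the 35 tested members with 95% confidence intervals from edgeR, 3 libraries per group. Most intervals cross 0, and those of Rora, Cd247, Icos, Lat and Klrb1c do not.

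**Figure D3:**
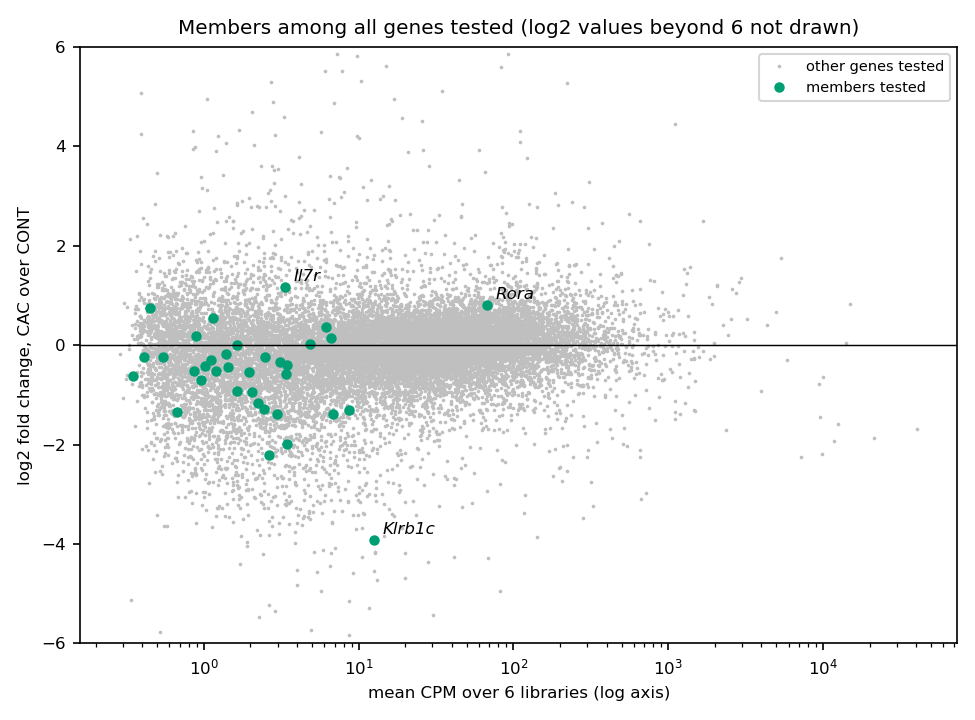
Log2 difference of CAC from CONT against mean CPM (log axis) for the 17296 genes tested in gray (log2 values beyond 6 not drawn), with the 35 tested members in green. All members but Rora and Klrb1c lie at a mean of at most 10 CPM, where the gray points spread widest.

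In the T cell receptor complex, Cd247 was lower and Cd3e higher in every CAC library than in any CONT library, and neither difference passed the adjusted threshold. Cd247 had 18.2, 9.90 and 9.09 CPM in CONT replicates 1, 2 and 3, and 3.00, 7.63 and 4.30 CPM in CAC replicates 1, 2 and 3, with the highest CAC value under the lowest CONT value. The log2 difference was -1.31 ± 0.47 (SE, n = 3 per group), with an unadjusted p of 0.029 and an adjusted p of 0.334 by edgeR. Without CONT replicate 1 the Cd247 difference was -0.92, with an unadjusted p of 0.103 by edgeR. Without CAC replicate 2 it was -1.75 by edgeR, with an adjusted p of 0.684, and -1.74 by DESeq2, which called it there with an adjusted p of 0.0329. The Cd247 span also holds Pou2f1, a widely expressed gene on the opposite strand, with 3070 reads to the 1007 of Cd247. Pou2f1 had 213, 533 and 515 reads in CONT and 521, 658 and 630 in CAC. Also on that strand, Gm37856 had 60, 28 and 24 reads in CONT and 8, 29 and 15 in CAC. Gm32999 had 32, 10 and 7, then 2, 7 and 7, and Gm37469 had 16, 10 and 6, then 5, 7 and 2. Unlike Pou2f1, these had most reads in CONT replicate 1, where Cd247 had its highest CPM. Whether the counting used strand is not given in the sources used here, and the part of these genes in the Cd247 counts was not tested. Of the CD3 chains, which carry the signaling motifs beside the receptor, Cd3e had 0.803, 1.05 and 0.949 CPM in CONT and 1.11, 1.90 and 1.09 CPM in CAC. Its groups did not overlap, with CAC above by 0.54 ± 0.45 (log2) and an adjusted p of 0.621 by edgeR. Without CAC replicate 2 the Cd3e difference was 0.25, with an unadjusted p of 0.702 by edgeR. Cd3g was at 2.14, 3.02 and 1.31 CPM in CONT and 1.36, 0.727 and 1.32 CPM in CAC, a difference of -0.92 ± 0.51. For Cd3d the values were 2.05, 1.05 and 0.407 CPM against 0.944, 0.484 and 1.13 CPM, and the difference was -0.42 ± 0.70. The groups overlapped for both.

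The receptor's constant genes, which were not members, give a second view of the same complex. The 8 constant genes summed to 14.4, 10.5 and 4.75 CPM in CONT and 6.08, 5.25 and 4.64 CPM in CAC, and the groups overlapped. All 5 that were tested had a negative difference, with a median of -0.84. Of these, Trdc had an unadjusted p under 0.05, and 6.95% of all genes were lower at that threshold. Over the same 5 genes the median by edgeR was -0.49 without CONT replicate 1 and -1.21 without CONT replicate 3. Trdc, the constant gene of the delta chain of gamma-delta T cells, had 1.34, 1.88 and 0.768 CPM in CONT and 0.411, 0.444 and 0.227 CPM in CAC. It was lower in every CAC library. Its log2 difference was -1.87 ± 0.56, with an adjusted p of 0.283 by edgeR. The differences of the others were -0.54 for Trac, -0.64 for Trbc1, -0.84 for Trbc2 and -1.19 for Tcrg-C1. Tcrg-C2 and Tcrg-C4 had at most 13 reads in any library and Tcrg-C3 none. Reads of the near-identical Trbc1 and Trbc2, and of the Tcrg-C copies, may be divided between them by the counting. Of 144 variable segments in the table, 44 had a read, and their summed reads were 14, 67 and 49 in CONT and 36, 31 and 30 in CAC.

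All 3 coreceptor genes had negative differences by edgeR under each normalization tried, Cd4 the largest. Cd4, the coreceptor of helper and most regulatory T cells, had 2.23, 4.77 and 3.44 CPM in CONT and 1.68, 1.90 and 0.717 CPM in CAC. The highest CAC value was below the lowest CONT value, with a log2 difference of -1.28 ± 0.55, an unadjusted p of 0.053 and an adjusted p of 0.38 by edgeR. Cd8a and Cd8b1, the chains of the cytotoxic coreceptor, differed by -0.52 ± 0.58 and -0.25 ± 0.67 with overlapping groups. Their levels were at most 1.45 CPM in any library.

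The balance between members within a library was read as 5 ratios on CPM + 0.5, where the added 0.5 weighs most on the lowest genes. The log2 ratio of Cd4 to Cd3e was 1.42 ± 0.35 (SD, n = 3) in CONT and 0.02 ± 0.42 in CAC, a difference of -1.41. An exact two-sided permutation test gave p = 0.1, the smallest that 3 against 3 allows, and 0.167 after adjustment over the 5 ratios. The ratio of Foxp3, the defining factor of regulatory T cells, to Cd4 was -2.37 ± 0.07 in CONT and -1.08 ± 0.51 in CAC, with no overlap and the same exact p of 0.1. It rests on few reads, since Foxp3 had 0, 13 and 6 reads in CONT and 14, 7 and 8 in CAC, and in CONT replicate 1 the added 0.5 alone set the Foxp3 term. The difference of 1.29 became 0.74 on CPM + 2 and 1.95 on CPM + 0.1. On the same scales the difference of Cd4 to Cd3e was -0.86 and -1.73. Ncr1, which encodes the NK receptor NKp46, stood to Cd3e at 0.34 ± 0.42 in CONT and -0.30 ± 0.17 in CAC, also without overlap (exact permutation p = 0.1). That difference of -0.65 was -0.36 on CPM + 2. Those of Cd8a to Cd4 (0.77 higher in CAC, exact permutation p = 0.2) and of Il1rl1 to Cd3e (-0.39, p = 0.4) overlapped between groups. No ratio passed 0.05 after adjustment, and this design could not reach it. Cd3e, the denominator for Cd4, Ncr1 and Il1rl1, itself differed by 0.54. The other members of the receptor complex had negative differences, of -0.42 (Cd3d), -0.92 (Cd3g) and -1.31 (Cd247). Ratios to those genes were not computed, so the lower ratios of Cd4 and Ncr1 hold against Cd3e only.

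**Figure D4:**
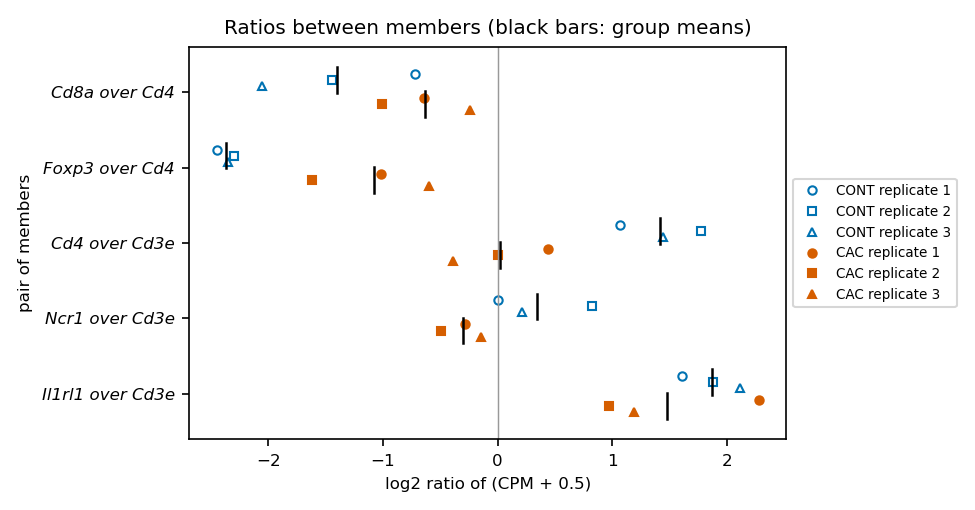
Log2 ratio (CPM + 0.5) of 5 member pairs in each library, CONT beside CAC, with the group means. The groups separate for Cd4 over Cd3e, Foxp3 over Cd4 and Ncr1 over Cd3e, where the smallest possible exact p is 0.1.

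Among the adhesion and costimulatory receptors, Icos had the lowest p. Icos, a costimulator of activated and regulatory T cells and of ILC2, had 1.34, 0.832 and 0.723 CPM in CONT and 0.493, 0.283 and 0.340 CPM in CAC. These levels rest on 7 to 19 reads per library. CAC was below CONT throughout, by -1.35 ± 0.51 on the log2 scale, with an unadjusted p of 0.035 and an adjusted p of 0.344 by edgeR. Cd28, the main costimulator of naive T cells, lies in the same cluster on chromosome 1 and differed by 0.19 ± 0.82. Of the other receptors of the group, Cd2 (an adhesion receptor, -0.35), Cd27 (a TNF receptor family costimulator, -0.54), Cd6 (the receptor of Alcam, -0.23) and Cd5 (a damper of receptor signals, 0.75) had overlapping groups. The Cd27 span overlaps Vamp1 on the opposite strand, which had 3527 reads to its 262. Of the inhibitory receptors, Ctla4 had 1 to 7 reads per library and Pdcd1 1 to 15 (Pdcd1 -0.62 ± 0.90), and the groups of both overlapped.

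Of the signaling genes next to the receptor, Lat was lower in every CAC library and Zap70 was set by 1 CONT library. Lat, the adaptor that gathers the signaling complex, had 3.12, 1.97 and 4.20 CPM in CONT and 1.36, 1.45 and 1.36 CPM in CAC. All CAC values were below all CONT values, and the log2 difference was -1.15 ± 0.44, with an unadjusted p of 0.037 and an adjusted p of 0.35 by edgeR. Zap70, the kinase that phosphorylates Lat, had 0.981 and 2.37 CPM in CONT replicates 1 and 2, 13.2 CPM in CONT replicate 3, and 1.72, 1.29 and 1.13 CPM in CAC. The log2 difference was -2.0 ± 0.95 with CONT replicate 3 and -0.27 without it. Lck, the kinase bound to the coreceptors, was at 1.90 to 3.72 CPM in CONT and 1.86 to 2.63 CPM in CAC and differed by -0.24 ± 0.44.

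All 4 cytokine receptor genes had positive differences, although that of Il1rl1 was -0.01 with upper-quartile normalization. Il7r, the receptor chain for interleukin-7 on naive and memory T cells and innate lymphoid cells, had 1.34, 2.80 and 2.03 CPM in CONT and 7.02, 3.11 and 3.78 CPM in CAC. Its groups did not overlap, and the log2 difference was 1.16 ± 0.51, with an unadjusted p of 0.058 and an adjusted p of 0.389 by edgeR. Il2ra and Il2rb, chains of the interleukin-2 receptor, were among the higher members at 3.75 to 9.36 CPM and differed by 0.37 ± 0.35 and 0.15 ± 0.43. Il1rl1, the interleukin-33 receptor of tissue regulatory T cells, ILC2 and mast cells, had 3.48, 5.21 and 5.74 CPM in CONT and 7.31, 4.20 and 3.13 CPM in CAC, a difference of 0.02 ± 0.45. The 7 mast cell markers (Kit and Tpsb2 highest) summed to 35.3 to 52.2 CPM in CONT and 31.9 to 61.3 CPM in CAC. Kit alone was at 21, 31.4 and 25.8 CPM in CONT and 18, 28.6 and 54.4 CPM in CAC. Of the 5 tested, Kit (0.37) and Tpsb2 (0.02) had positive differences. Those of Cpa3 (-0.52), Cma1 (-0.81) and Mcpt4 (-1.14) were negative. The part of mast cells in the Il1rl1 level was not tested.

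Of the transcription factors, Rora had its 3 highest levels in CAC, and the T cell factors Tcf7 and Lef1 their 2 highest levels in CONT. Rora, a nuclear receptor that ILC2 need for their development and that many non-lymphoid cells also make, had 37.5, 57.5 and 53.2 CPM in CONT and 86.9, 101 and 70.7 CPM in CAC. The lowest CAC library exceeded the highest CONT library, and the log2 difference was 0.80 ± 0.23 (95% interval 0.24 to 1.36), with an unadjusted p of 0.012 and an adjusted p of 0.28 by edgeR. DESeq2 gave 0.83 with an adjusted p of 0.0391, and with each library left out in turn its adjusted p ran from 0.0208 to 0.199.

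Tcf7 and Lef1, paired factors of naive and memory T cells that also act in Wnt signaling outside them, varied widely within CONT. Tcf7 had 2.94, 11.5 and 15.0 CPM in CONT and 3.24, 5.13 and 2.95 CPM in CAC, with a log2 difference of -1.38 ± 0.62. Lef1 had 0.535, 4.60 and 7.96 CPM in CONT and 0.862, 0.484 and 1.47 CPM in CAC, with a log2 difference of -2.22 ± 0.95. In CONT replicate 1 both were at the level of the lowest CAC libraries, while the other CONT libraries lay above all of CAC. The adjusted p by edgeR was 0.399 for Tcf7 and 0.383 for Lef1. Without CONT replicate 1, DESeq2 gave adjusted p of 0.00069 for Tcf7 and 0.00209 for Lef1, while edgeR called neither. Without CONT replicate 3, which was highest for both, the differences by edgeR were -0.92 for Tcf7 and -1.44 for Lef1, and the adjusted p by DESeq2 was 0.593 and 0.582. Gata3, the factor of type 2 lymphocytes, had 3.03, 1.14 and 7.59 CPM in CONT and 0.944, 7.79 and 0.264 CPM in CAC, so replicate 3 of CONT and replicate 2 of CAC lay far above the other libraries of their groups. Its difference of -0.39 ± 1.24 went from -2.68 to 0.55 as single libraries were left out. Bcl11b (T cell commitment, -0.30) and Tbx21 (type 1 lymphocytes, -0.71) had overlapping groups, and Eomes had 6 to 22 reads per library.

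Of the effector genes, Nkg7 and the barely detected Ifng did not overlap between the groups, and the others did. Nkg7, a granule protein of cytotoxic cells, had 2.05, 3.81 and 2.17 CPM in CONT and 1.11, 1.86 and 1.21 CPM in CAC. CAC was below CONT in every library, with a log2 difference of -0.95 ± 0.47, an unadjusted p of 0.087 and an adjusted p of 0.43 by edgeR. Gzma and Gzmb, the granzymes, were highest in CONT replicate 2 at 8.63 and 3.81 CPM. Their differences were -1.39 ± 0.74 and 0.00 ± 0.94, and without that library the difference of Gzma was -0.37, that of Gzmb 1.58 and that of Nkg7 -0.60 by edgeR. Prf1, which encodes the pore former perforin, differed by -0.18 ± 0.61. Ifng, the type 1 cytokine, had 2, 4 and 3 reads in CONT and 1, 0 and 0 in CAC. Areg, an epidermal growth factor family ligand of tissue regulatory T cells and ILC2, had 0, 1 and 2 reads in CONT and 0, 17 and 20 in CAC, so that CAC replicate 1 was as low as CONT.

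The NK receptor genes showed 1 high library and otherwise overlapping groups. Klrb1c, the NK1.1 antigen of C57BL/6 mice, had 8, 52 and 1510 reads in CONT and 26, 39 and 54 in CAC, which is 0.713, 2.28 and 68.3 CPM against 1.07, 1.57 and 2.04 CPM. The log2 difference was -3.92 ± 1.62, with an unadjusted p of 0.048 and an adjusted p of 0.371 by edgeR. Without CONT replicate 3 it was 0.06. That library was the one with the epididymis markers at 6990 CPM, and the other NK receptor genes were not high in it. Klrd1, Klrk1 and Ncr1 had 1.27, 2.40 and 1.18 CPM there, within or below the range of the other CONT libraries. Their differences were -0.44 ± 0.58, -0.57 ± 0.43 and -0.51 ± 0.53 with overlapping groups, and that of Ncr1 was 0.00 without CONT replicate 2. The part of the epididymal RNA in the Klrb1c and Zap70 values was not tested.

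The wider lists of the same cells gave no call by edgeR either. Of 32 tested genes of T cell receptor signaling, 1 was higher and 2 lower at an unadjusted p under 0.05. Of all genes, 6.31% were higher and 6.95% lower at that threshold. The median log2 difference of the 32 was -0.04. The 3 with the smallest p were Lcp2 (SLP-76, the partner of Lat, -0.93 ± 0.34, unadjusted p 0.031), Skap1 (an adhesion adaptor, -1.76 ± 0.67, unadjusted p 0.036) and Gimap5 (a GTPase of lymphocyte survival, 0.74 ± 0.28, unadjusted p 0.037). Skap1 was highest in CONT replicate 3, at 5.47 CPM against 1.34 and 1.62 in the other CONT libraries, and differed by -0.82 without it (unadjusted p 0.239 by edgeR). Of 17 tested cytotoxic and NK genes, 0 passed that threshold, and the median was 0.25. Differences were positive for 10 of the 17 and negative for 7. The smallest p were those of Ctsw (cathepsin W, -1.06), Klra8 (an NK receptor, -1.0) and Klra7 (-0.72), all among the 7. By limma on log2(FPKM + 1) that median was -0.16 over genes past the FPKM filter and 0.03 without a filter.

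Of 14 tested genes of regulatory T cells, ILC2 and related cells, 2 were higher and 1 lower at an unadjusted p under 0.05. The shares of all genes were 6.31% and 6.95%. The median of the 14 was -0.31. Zbtb16 (PLZF, a factor of innate-like lymphocytes that other tissues also make) had 29.4, 52.6 and 59.3 CPM in CONT and 331, 146 and 159 CPM in CAC. The log2 difference was 2.17 ± 0.43 with an adjusted p of 0.223 by edgeR. Lag3, an inhibitory receptor that binds MHC class II, had 19.3, 7.66 and 7.14 CPM in CONT and 6.98, 3.23 and 2.19 CPM in CAC, a difference of -1.45 ± 0.61, or -0.82 without CONT replicate 1. CAC was above CONT in every library for 3 of the 14, Zbtb16 among them, against 11.8% of all genes. It was below CONT for 3, Lag3 among them, against 10.7%. Il17a had no read in any library.

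Ligands that act on these cells, most of them through receptors among the members, were read in the same libraries. Of 14 tested, 1 was higher and 3 lower at an unadjusted p under 0.05, against 6.31% and 6.95% of all genes. The median of the 14 was -0.47. Cd274 (PD-L1, the ligand of Pdcd1) had 30.3, 30.3 and 23.3 CPM in CONT and 14.0, 15.5 and 15.3 CPM in CAC, a log2 difference of -0.91 ± 0.20 with an adjusted p of 0.228 by edgeR. Tslp, a cytokine that acts on ILC2 and dendritic cells, had 2.85, 1.27 and 1.81 CPM in CONT and 0.287, 0.565 and 0.340 CPM in CAC, a difference of -2.29 ± 0.55 with an adjusted p of 0.239 by edgeR. Cd86, a ligand of Cd28 and Ctla4, differed by -0.82 ± 0.34, and Raet1e, a ligand of the Klrk1 receptor, by 1.46 ± 0.55. For these 4 the groups did not overlap, as for 11.8% of all genes with CAC above and 10.7% with CAC below. Of the homeostatic cytokines, Il15 differed by -0.75 ± 0.38 without overlap and Il7 by -0.22 ± 0.39. Il33, the ligand of Il1rl1, had 22.2, 13.3 and 11.6 CPM in CONT and 9.57, 29.0 and 14.0 CPM in CAC, a difference of 0.16 ± 0.47. The remaining 7, which were Il18 (-0.95), Cd1d1 (-0.87), Cd48 (-0.71), Alcam (-0.23), Cd80 (-0.16), Icosl (0.05) and Ulbp1 (0.34), had overlapping groups.

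Markers of other cell types moved in both directions beside the lymphoid genes. B and plasma cell markers (Jchain and Pax5 highest) summed to 55.6 to 95.9 CPM in CONT and 9.82 to 21.6 CPM in CAC. Neutrophil markers (S100a9 and S100a8 highest) summed to 4.99 to 53.2 CPM in CONT and 137 to 983 CPM in CAC, and the groups of neither list overlapped. The summed macrophage markers (Lyz2 and Csf1r highest) overlapped, at 495 to 1480 CPM and 789 to 1150 CPM by group, as did those of dendritic cells (Zbtb46 and Clec9a, 41.2 to 58.9 CPM and 32.2 to 57.5 CPM). The sums also overlapped for mesothelium (Upk3b and Krt19, 69.5 to 165 CPM and 35.1 to 128 CPM), fibroblasts and progenitors (Dcn and Col1a1, 1240 to 1340 CPM and 1200 to 1700 CPM) and red cells (Hba-a1 and Hbb-bs, 229 to 4590 CPM and 1730 to 2200 CPM). Mast cell markers also overlapped (35.3 to 52.2 CPM and 31.9 to 61.3 CPM). Single tested genes within these lists stood apart where the sums did not, as 22.5% of all genes did in either direction. Of the macrophage genes, Cd14 (1.19) and Mertk (1.37) were above CONT in every CAC library, and the other 5 had negative differences with overlap. Of the dendritic cell genes, Xcr1 (-1.45) and Siglech (-1.5) were below without overlap. Of the fibroblast genes, Dcn (0.60) was above and Col1a1 (-2.13) and Pi16 (-0.86) below without overlap. Alas2 of the red cell genes (1.39) was above and Cpa3 of the mast cell genes (-0.52) below in the same way. Markers of lymph node stroma and high endothelium (Cxcl13 and Ccl21a) summed to 10.4, 117 and 104 CPM in CONT and 6.28, 15.6 and 22.5 CPM in CAC. Cxcl13 made up 9.54, 102 and 102 CPM of the CONT sums, and Glycam1 had at most 1 read. Ccl21a had 0.535, 14.1 and 0.904 CPM in CONT and 3.04, 0.888 and 3.81 CPM in CAC. Cr2, also tested, differed by 0.18 with overlapping groups. Macrophage and lymph node sums were both lowest of CONT in replicate 1, as Tcf7 and Lef1 were. The part of these cells in the members' values was not tested.

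**Figure D5:**
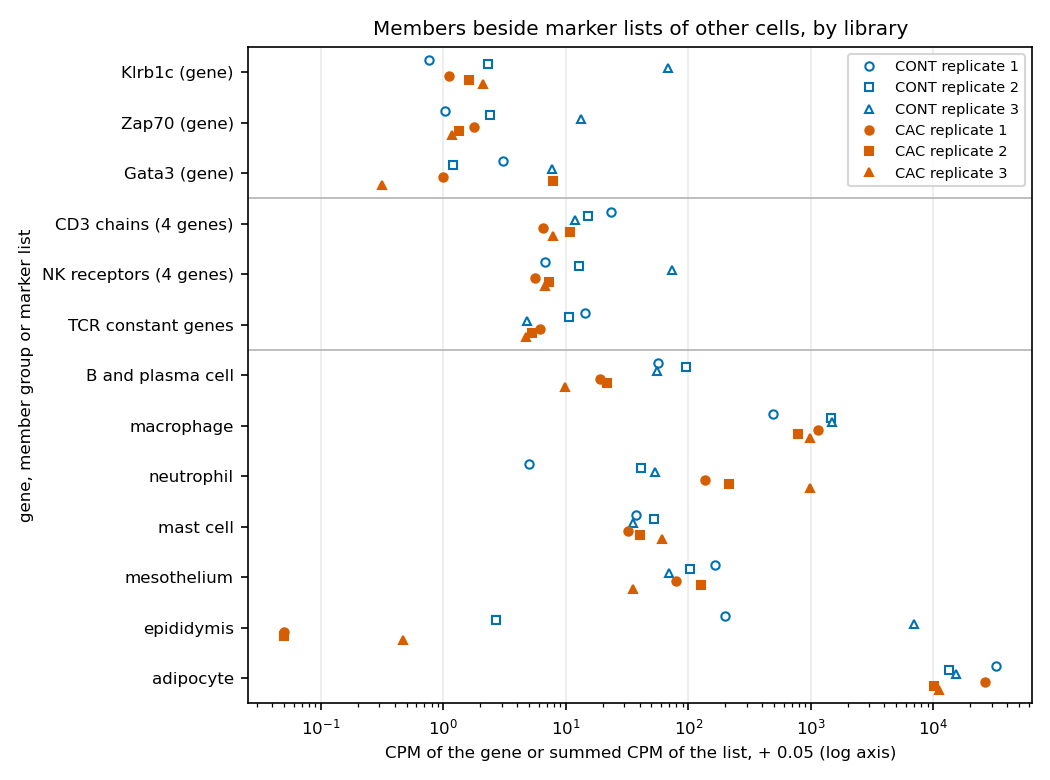
CPM + 0.05 (log axis) of 3 members, and summed CPM of CD3 and zeta chains, NK receptors, receptor constant genes and 7 marker lists, in each of the 6 libraries, open blue for CONT and filled orange for CAC. The neutrophil sums separate with CAC above, the B and plasma cell sums with CAC below, and the epididymis sum reaches 6990 CPM in CONT replicate 3.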

How the data were processed

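Reads had been cleaned by the authors, mapped by HISAT2 2.0.5 to mouse GRCm38 (Ensembl release 94) and counted per gene by featureCounts 1.5.0-p3, and the deposited counts are unnormalized whole numbers. The deposited FPKM scale these reads by gene length and by a total that differs from the sum of the counts. Strand and multi-mapping settings are not given in the sources used here. One library came from each mouse.

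Counts were tested with edgeR 4.0.16 in R 4.3.3 by its quasi-likelihood test (robust, TMM, filterByExpr by group, Benjamini-Hochberg over the 17296 genes tested), with condition as the only term and a threshold of 0.05. SE and 95% intervals are those of the fit. CPM uses the TMM-adjusted library size, on which 1 CPM stood for 11.2 to 26.5 reads. Alternatives were RLE and upper-quartile normalization, mitochondrial genes left out, other filters, no robust estimation, leaving out single libraries, a block for replicate number, DESeq2 1.42.0 (alpha 0.05), and limma 3.58.1 on log2(FPKM + 1) or log2(FPKM + 0.1), which understates changes of low genes and kept those reaching an FPKM of 0.5 in 3 libraries. The scripts were tested on simulated counts.

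The members, gene lists and tests were chosen with earlier results of these data known. The motifs, the sequences printed, the alpha of DESeq2, its fits with a library left out and such edgeR values of genes that are not members were chosen after values were seen. All members, receptor constant genes and tested ligands are named. Of the other lists, genes past the test or else the 3 with the smallest p are named, and of each marker list the 2 highest. One gene that this rule names is not reported here. Il17a, overlapping genes, the single marker genes that stood apart and the further mast cell and lymph node genes were named after their values were seen. Cd58, a listed ligand, had no row under that symbol. Sequences were matched by symbol, chromosome and strand, taking the RefSeq start nearest the gene start.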

Additional observations from a re-analysis of the deposited data

How the results depend on the processing

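Of 751 values of tested members under an alternative, 681 kept their direction and their side of the threshold, 61 changed sign and 9 passed the threshold. The number of genes called, 0 by edgeR, was 965 by DESeq2, 1 with the replicate block, and 5 and 6 by limma on log2(FPKM + 1) and log2(FPKM + 0.1). With single libraries left out it ran from 0 by edgeR to 2102 by DESeq2 (without CONT replicate 1). Members called numbered 1 by DESeq2 and 0 to 5 with single libraries left out, the 5 (Rora, Tcf7, Lef1, Zap70 and Klrb1c) by DESeq2 without CONT replicate 1. DESeq2 also called Klrb1c without CONT replicate 2, Cd247 without CAC replicate 2 and Rora without CAC replicate 3. Members higher at an unadjusted p under 0.05 numbered 2 by DESeq2, without mitochondrial genes and with at least 10 counts in every library, and 1 to 2 with single libraries left out. Members lower numbered 0 of 35 with the replicate block and 2 of 40 without a filter. They were 2 of 18 by limma on log2(FPKM + 0.1) and 2 of 40 on unfiltered log2(FPKM + 1). With single libraries left out they numbered 0 to 6, down to 0 by edgeR without CAC replicate 1 or CAC replicate 3. The share of all genes in either direction was 13.3% in the main fit, 11.5% with the block and 7.62% without a filter. It was 14% and 6.47% in those limma fits, 9.73% by DESeq2, 13.6% without mitochondrial genes and 15.4% with at least 10 counts. With single libraries left out it ran from 7.24% to 15.6%. Members without overlap and lower numbered 3 of 18 by filtered limma on either FPKM scale (16.7%, against 9.86% of all genes). On unfiltered log2(FPKM + 1) they were 6 of 40 (15%, against 6.58%). With single libraries left out they numbered 5 to 12. By edgeR they were 12 of 38 without CONT replicate 1 (31.6%, against 19.6%) and 9 of 38 without CONT replicate 3 (23.7%, against 13.1%). Those higher numbered 3 to 5 with single libraries left out. By edgeR the 5 without CAC replicate 3 were 13.9% of 36, against 15.2% of all genes. The median of the tested members was -0.18 by limma on log2(FPKM + 1) and -0.09 without a filter. That of the cytotoxic list was -0.16 and -0.19 by limma with a pseudocount of 1 and 0.1. The ligand median was -0.75 by DESeq2, -0.73 by limma on log2(FPKM + 0.1), -0.08 on unfiltered log2(FPKM + 1), and -0.83 to -0.36 with single libraries left out. The receptor constant genes gave -0.37, -0.52 and -0.26 by limma with a pseudocount of 1, of 0.1 and of 1 unfiltered, and -1.29 (without CONT replicate 3, 6 genes tested by edgeR) to -0.31 (without CONT replicate 1, 7 genes by DESeq2). The causes were not tested.

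Log2 differences that changed sign as single libraries were left out ran from -0.84 to 0.30 for Cd3d, -0.48 to 0.51 for Cd8b1, -0.89 to 0.54 for Cd6, -0.28 to 0.71 for Cd28, -0.09 to 0.42 for Il2rb, -0.37 to 0.29 for Il1rl1, -0.42 to 0.10 for Lck, -0.62 to 0.02 for Bcl11b, -2.68 to 0.55 for Gata3, -0.66 to 1.59 (without CONT replicate 2) for Gzmb, -0.92 to 0.17 for Prf1, -4.50 to 0.09 for Klrb1c and -0.73 to 0.24 for Klrd1. Il1rl1 was also -0.01 with upper-quartile normalization and by limma on log2(FPKM + 0.1), and -0.05 with the replicate block. Gzmb, at 0.00, was 0.03 with RLE, 0.06 without mitochondrial genes and by DESeq2, 0.11 without a filter and on both log2(FPKM + 1) fits, 0.43 on log2(FPKM + 0.1) and 0.56 with the replicate block.

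The replicate numbers are shared by the groups, and whether they pair the mice is not given. Same-numbered libraries deviated from their group means with correlations of 0.268, -0.227 and -0.264 over 17296 genes. Differently numbered libraries had correlations from -0.42 to 0.492. With 3 libraries per group, these values cannot show whether the mice were paired. Each ratio between members kept its sign in 9 of 9 alternatives, none of which changed the genes of the ratio. Of the 40 members, 25 had fewer than 100 reads in every library, and the median half-width of a tested member's 95% interval was 1.34 on the log2 scale.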

Other observations

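The genes named here were picked after their values were seen. Il4, a type 2 cytokine, had 11, 47 and 27 reads in CONT and 24, 8 and 22 in CAC, and differed by -1.0 ± 0.59 (log2) with an adjusted p of 0.491 by edgeR. Il10, the cytokine of regulatory T cells and also of macrophages and B cells, had 7, 24 and 21 reads in CONT and 7, 0 and 2 in CAC, which is 0.624, 1.05 and 0.949 CPM against 0.287, 0 and 0.0755 CPM. It was removed by the filter on low counts and not tested, and its groups did not overlap. Il13, another type 2 cytokine, had 1, 3 and 4 reads in CONT and 0, 0 and 1 in CAC, and Il5 had at most 2 reads in any library. Gzmc, a granzyme of strongly activated cytotoxic cells, had 55 reads in CAC replicate 3 and at most 8 in the other libraries.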
